A study of Mus musculus with 24 samples.

Results

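Oxidative phosphorylation makes ATP at the inner mitochondrial membrane. Complexes I to IV pass electrons from NADH and succinate to oxygen and pump protons, and complex V, the ATP synthase, lets the protons flow back. Most subunits are encoded in the nucleus and imported, while a small core set is encoded in the mitochondrial genome and made on the mitochondrial ribosome. The retinal pigment epithelium (RPE), the pigmented layer behind the retina, is known as a tissue rich in mitochondria that burns lactate and fatty acids and passes glucose on to the photoreceptors.

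The genes described here were taken by symbol alone: protein-coding genes that encode subunits of complexes I to V, cytochrome c1 (Cyc1) or the electron carrier cytochrome c (Cycs), without the assembly factors. They number 101 of 31053 gene identifiers. Of these, 13 lie in the mitochondrial genome and 88 in the nucleus: 38 for complex I, 4 for complex II, 9 for complex III, 18 for complex IV, 18 for complex V, and Cycs. Complexes were assigned by symbol, so Ndufa4, since placed in complex IV, counts here under complex I. In all, 95 members (84 nuclear, 11 mitochondrial) had enough counts to be tested. The other 6 were Cox6a2 (49 counts over 24 libraries), Cox7b2 (10), mt-Atp8 (29), and Cox8c, mt-Nd4l and a second gene model of Atp5o, each at 0 counts. Where reads can be assigned to a gene, 0 allows up to 3 counts of 55800672. mt-Nd4l and the second Atp5o model overlap another gene on the same strand, and mt-Nd4l has an identical nuclear copy. Their 0 may therefore set no such limit.

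RNA of isolated mouse RPE was counted in 24 libraries, 4 in each of 6 groups: control and mutant at 3 ages, postnatal days 11 (P11) and 29 (P29) and 3 months of age (3M). Controls carried Dct-Cre, a recombinase under a promoter of pigment cells, and mutants carried it together with floxed Ift20, a gene of intraflagellar transport, the traffic that builds cilia. Every group thus held Dct-Cre. The labels give a mixed background strain, no sex and no batch, and do not say whether libraries came from separate animals. One protocol label speaks of RNA being mixed to a set concentration, without saying whether RNA of several animals was pooled. The p-values therefore measure only the spread between libraries, which may be pools.

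Libraries held 1513440 to 2889946 gene counts (median 2386800). Levels are CPM, a gene's counts divided by the library's gene counts and set to the usual total, scaled by TMM factors of 0.938 to 1.048. The kit reads 1 tag near the 3' end of each polyadenylated transcript, so CPM does not grow with transcript length. Ift20 itself was at 85.3 ± 8.22 CPM in P11 mutants against 102 ± 36.7 in controls, 71.1 ± 12.8 against 108 ± 18.2 at P29, and 111 ± 9.37 against 133 ± 18.2 at 3M (SD, n = 4). Only the P29 difference passed the test of edgeR (adjusted p = 0.0113, against 0.352 and 0.548), and the labels do not say whether the counted tag lies in the deleted part. The 12 RPE markers were all detected, with a summed level of 18611 to 70384 CPM. Rod photoreceptor markers (16 genes) were also present, at 4395 to 18048 CPM.

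The 3' ends of the mitochondrial genes are shown first, because they bear on which of these genes the counts can resolve. The 6 genes mt-Nd1, mt-Nd2, mt-Co1, mt-Nd4, mt-Nd5 and mt-Cytb held 99.872% of the 3660342 mitochondrial-encoded counts, and the other 7 held 4674 counts. The files count reads that align to 1 place, and the annotation holds near-identical copies of mitochondrial genes on nuclear chromosomes, annotated as pseudogenes. For mt-Co3 and the copy Gm28437, 80 bases next to the 3' end of the gene are identical (chrM:9310-9389, plus strand; chr1:24613189-24613268, minus strand; GRCm38). For mt-Nd2 and Gm13339 (chrM:4867-4946, plus strand; chr2:22590029-22590108, minus strand) 2 bases differ, printed in capitals.
mt-Co3: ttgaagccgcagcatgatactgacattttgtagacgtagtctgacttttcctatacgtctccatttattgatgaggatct
Gm28437: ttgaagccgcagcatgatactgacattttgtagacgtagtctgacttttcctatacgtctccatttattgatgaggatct
mt-Nd2: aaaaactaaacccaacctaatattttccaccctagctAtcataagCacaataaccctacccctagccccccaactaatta
Gm13339: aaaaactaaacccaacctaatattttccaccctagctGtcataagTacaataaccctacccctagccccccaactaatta

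Over the last 300 bases, mt-Co2, mt-Atp6, mt-Co3, mt-Nd3 and mt-Nd4l each matched a copy on chromosome 1 at 100% identity over 294 to 299 aligned bases. These 5 genes had 470, 494, 804, 893 and 0 counts over the 24 libraries. The genes with no copy above 95% identity included mt-Nd1 (607131 counts), mt-Nd4 (1273956), mt-Nd5 (177491) and mt-Cytb (782120). The split was not complete. mt-Co1 had an identical copy over 300 bases and 107968 counts, while mt-Nd6, encoded on the other strand, had no such copy and 1984 counts, and mt-Atp8 had none and 29 counts. By coordinates, mt-Atp8 overlaps mt-Atp6 and mt-Nd4l overlaps mt-Nd4 on the same strand, and mt-Nd6 overlaps mt-Nd5 on the opposite strand. Whether the copies or these overlaps lower the counts was not tested. The levels of the 5 genes with an identical chromosome 1 copy and few counts are uncertain. The same may hold for mt-Co1 in the comparisons below, as its last 300 bases have an identical copy too. Among the nuclear members, 27 of 88 had a near-identical copy elsewhere.

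Mitochondrial and nuclear transcripts moved in opposite directions as control RPE matured. In control libraries at P11, mitochondrial-encoded genes took 7.31%, 7.83%, 7.30% and 8.79% of gene counts, and at P29 they took 4.88%, 4.76%, 5.45% and 5.12%. Nuclear-encoded genes took 1.33%, 1.42%, 1.38% and 1.37% at P11 and 1.68%, 1.62%, 1.62% and 1.64% at P29. The groups did not overlap for either share. The means were 7.81% ± 0.703 and 5.05% ± 0.305 for the mitochondrial share and 1.37% ± 0.0346 and 1.64% ± 0.0300 for the nuclear share (SD, n = 4), given without a test. At 3M the control shares were 4.83% ± 0.392 and 1.63% ± 0.0252, overlapping those at P29. In bulk RNA, fewer cells of a type and less RNA per cell cannot be told apart.

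**Figure D1:**
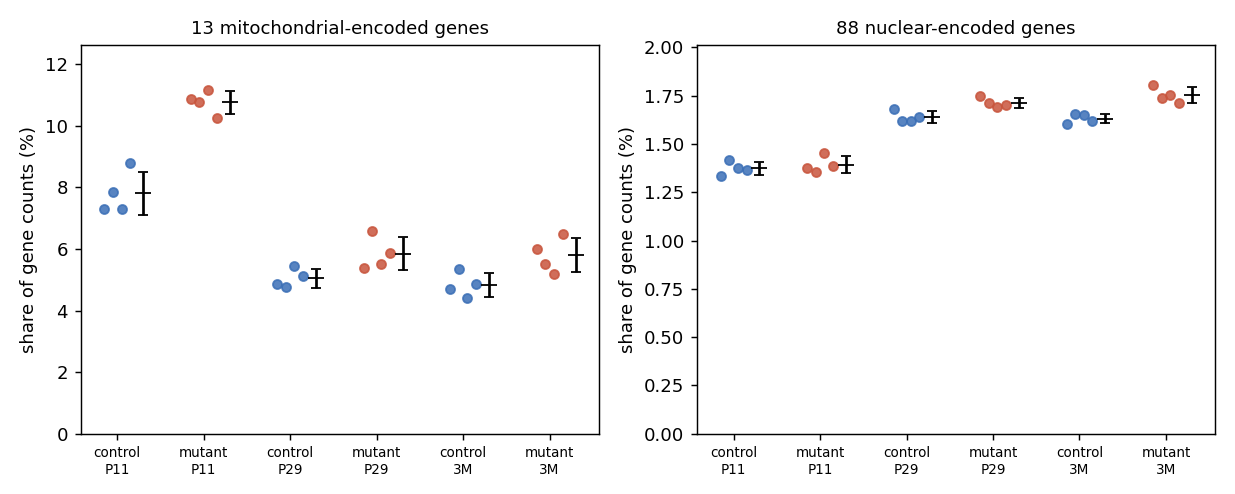
Share of gene counts (%) taken by the 13 mitochondrial-encoded and the 88 nuclear-encoded genes in each library (points, 4 per group; controls blue, mutants red), with the mean and SD in black. The control mitochondrial share averages 7.81% at P11 and 5.05% at P29, the nuclear share 1.37% and 1.64%.

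Gene by gene, 10 of the 11 tested mitochondrial genes fell from P11 to P29 in controls and none rose, while 43 of 84 nuclear members rose and 3 fell (33 and 5 with median-of-ratios size factors, 34 and 6 by DESeq2). The background was 32% of all 12303 genes called at an adjusted p under 0.05 (edgeR quasi-likelihood test, Benjamini-Hochberg over all genes), 16.5% higher and 15.6% lower. The median log2 fold change was -1.02 for the mitochondrial genes, 0.30 for the nuclear genes and -0.02 for all genes tested. The mitochondrial median weighs genes of few counts like the 6 that hold 99.872% of mitochondrial counts. Of those 6, only mt-Nd1 fell by as much as this median. By complex, 17 of 38 members rose in complex I (1 fell), 2 of 4 in complex II, 6 of 9 in complex III, 8 of 15 in complex IV (2 fell) and 10 of 17 in complex V. Cycs, at 14.01 ± 9.01 CPM at P11 and 22.8 ± 4.86 at P29, was not called (adjusted p = 0.0743). Split by near-identical copies, 29 of 57 tested members without one rose and 1 fell, and 14 of 27 with one rose and 2 fell.

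**Figure D2:**
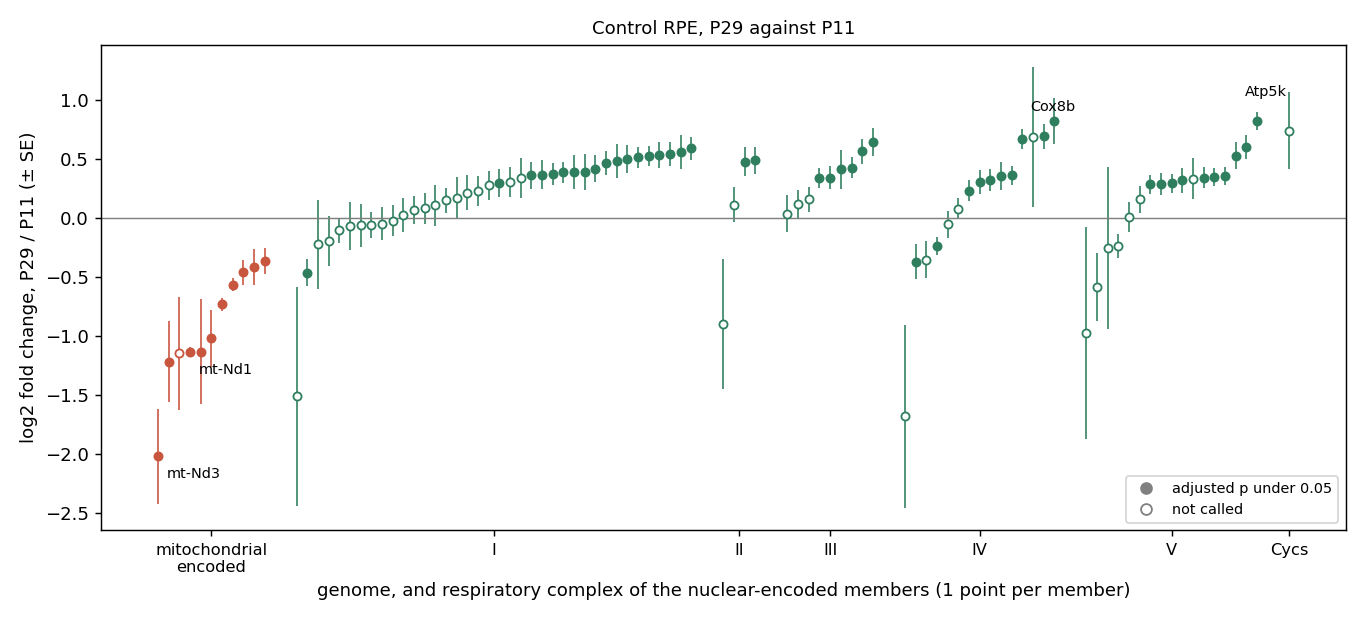
Log2 fold change from P11 to P29 in control RPE (vertical axis, with SE) for each of the 95 tested members, mitochondrial-encoded genes in red and nuclear-encoded genes in green, grouped by complex; filled points passed an adjusted p of 0.05. All 11 mitochondrial genes lie below 0, and 43 nuclear genes lie above it as filled points.

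Among the mitochondrial genes, mt-Nd1, a core membrane subunit of complex I, had 17041, 17404, 17502 and 15596 CPM in P11 controls. It had 7723, 7644, 7946 and 7443 CPM in P29 controls, and the groups did not overlap. Its log2 fold change was -1.13 (SE 0.04, adjusted p = 1.11e-43, edgeR). mt-Co1, the catalytic core of complex IV, fell from 2571 ± 86.5 to 1550 ± 104 CPM (SD, n = 4; log2 -0.73, SE 0.06, adjusted p = 5.41e-21). mt-Cytb, the cytochrome b of complex III, fell from 16222 ± 899 to 10964 ± 575 CPM (log2 -0.57, SE 0.06, adjusted p = 2.15e-09).

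The decline was not of 1 size. mt-Nd5 fell by 0.46 on the log2 scale (adjusted p = 0.00227, edgeR), mt-Nd4 by 0.42 (adjusted p = 0.0416) and mt-Nd2 by 0.37 (adjusted p = 0.0169), all 3 being membrane-arm subunits of complex I. For mt-Nd4 and mt-Nd2, control P11 replicate 4 stood apart with 28517 and 18197 CPM, against 18683 to 22961 and 11629 to 12458 in the other P11 controls. Without it the calls ended, at log2 -0.28 (adjusted p = 0.177) and -0.19 (adjusted p = 0.059). The mt-Nd4 call also ended without control P11 replicate 2 or control P29 replicates 1, 2 or 4 (adjusted p 0.0727 to 0.113), and that of mt-Nd2 without control P29 replicate 1 or 2 (0.0563 and 0.0585). Replicate 4 also had the lowest mt-Nd1 of its group, so that mt-Nd1 made up 18.2% of its mitochondrial counts against 22.9% to 25.1% in the others.

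The genes with few counts fell as well. mt-Nd3 went from 32.1 ± 16.8 to 7.87 ± 2.19 CPM (log2 -2.02, SE 0.41, adjusted p = 3.53e-05, edgeR), mt-Co3 from 28.8 ± 10.3 to 12.4 ± 1.66 (adjusted p = 0.00341) and mt-Nd6 from 48.9 ± 18.4 to 24.2 ± 9.80 (adjusted p = 0.000426). mt-Atp6, a subunit of the proton channel of complex V, went from 14.3 ± 4.32 to 6.52 ± 0.627 CPM (adjusted p = 0.0396). Its call ended when any of 6 of the 8 libraries was left out, that is, all but control P11 replicates 2 and 4 (adjusted p 0.0589 to 0.146). mt-Co2 went from 13.7 ± 7.30 to 6.13 ± 2.85 CPM and was not called (adjusted p = 0.0567).

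**Figure D3:**
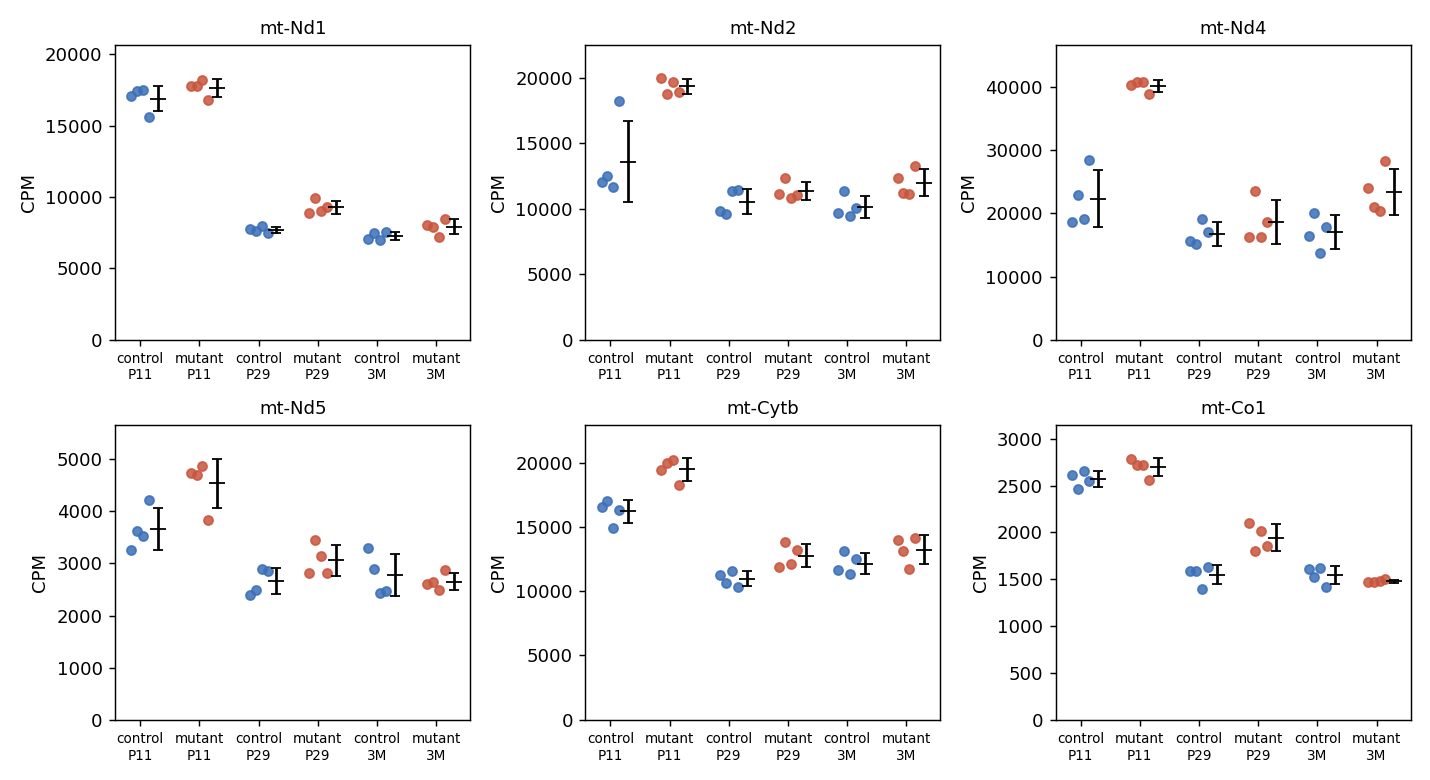
CPM of the 6 mitochondrial-encoded genes that hold 99.872% of mitochondrial counts, per library (points, in replicate order; controls blue, mutants red), with the mean and SD of the 4 libraries of a group in black. All 6 are lower in P29 than in P11 controls on average, and mt-Nd4 lies between 38922 and 40886 CPM in the 4 P11 mutants.

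The nuclear member with the smallest p was Atp5k, subunit e of the ATP synthase, which lies in its membrane part. It had 314, 383, 304 and 352 CPM at P11 and 587, 616, 580 and 602 at P29 in controls, with no overlap (log2 0.82, SE 0.08, adjusted p = 6.16e-16, edgeR). It rose again to 728, 742, 777 and 714 CPM at 3M (log2 0.31, SE 0.08, adjusted p = 0.00171). Atp5d, the delta subunit of the central stalk, rose from 174 ± 16.5 to 264 ± 23.5 CPM between P11 and P29 (log2 0.60, adjusted p = 6.13e-07).

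Complex IV held 2 further leading genes, Cox8a and Cox8b, which encode the ubiquitous and the heart and muscle type of subunit VIII. Cox8a rose from 421 ± 55.7 to 667 ± 85.8 CPM (SD, n = 4; log2 0.67, SE 0.08, adjusted p = 5.37e-11, edgeR). Cox8b rose from 146 ± 29.7 to 236 ± 19.4 CPM (log2 0.69, SE 0.11, adjusted p = 1.44e-07), so both types were expressed and both rose. Ndufv3, an accessory subunit of the NADH-oxidising module of complex I, rose from 255 ± 27.6 to 366 ± 11.8 CPM (log2 0.52, SE 0.09, adjusted p = 3.12e-07).

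Among subunits with defined roles, some rose by smaller values and others were not called. In complex II, the flavoprotein Sdha rose by 0.49 and the iron-sulfur protein Sdhb by 0.48 on the log2 scale (adjusted p = 3e-04 and 0.00107, edgeR), while the membrane anchors Sdhc and Sdhd were not called (log2 0.11 and -0.90, adjusted p = 0.615 and 0.233). The catalytic beta subunit Atp5b and the alpha subunit Atp5a1 of complex V rose by 0.29 and 0.34 (adjusted p = 0.00293 and 0.000169). The core subunit Ndufs1 of complex I, Cyc1 and the core protein Uqcrc1 of complex III were not called (log2 0.11, 0.04 and 0.11; adjusted p = 0.695, 0.888 and 0.527).

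Among the nuclear members that fell from P11 to P29 in controls were Cox6c and Cox5a, small subunits of complex IV. They fell by 0.24 and 0.37 on the log2 scale (adjusted p = 0.0148 and 0.0465, edgeR). The Cox6c call ended without control P11 replicate 2 or control P29 replicate 3 or 4 (adjusted p 0.0501 to 0.102). The Cox5a call ended without control P11 replicates 2, 3 or 4 or control P29 replicates 2, 3 or 4 (0.0736 to 0.294), and both genes have a near-identical copy. Such copies are also annotated for members that rose, among them Atp5k, Atp5g1, Atp5h and Ndufb3.

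Several members exist as isoform pairs, in which 1 form is widely expressed and the other is tied to a tissue or condition. In P29 controls Cox4i1 was at 399 ± 35.1 CPM and its hypoxia-linked partner Cox4i2 at 2.41 ± 0.711. Cox6a1 was at 436 ± 38.0 and the muscle form Cox6a2 at 0.397 ± 0.794. Cox7a2 was at 332 ± 17.5 and the muscle form Cox7a1 at 6.97 ± 4.10 (SD, n = 4).

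Cox8b at 236 ± 19.4 CPM was thus the only muscle-type form of these pairs above 10 CPM on average in P29 controls, beside 667 ± 85.8 for Cox8a. Cox6b2, the testis form, was at 65.0 ± 6.88 against 250 ± 13.7 CPM for Cox6b1, and it rose by 0.82 from P11 (adjusted p = 0.000419, edgeR), Cox6b1 by 0.30 (adjusted p = 0.0107; 0.0711 without control P11 replicate 1). Ndufa4 was at 157 ± 17.6 and Ndufa4l2 at 1.82 ± 1.28 CPM. The c-ring of the ATP synthase is encoded by 3 genes with the same mature protein. Atp5g3 (663 ± 50.6) and Atp5g1 (205 ± 9.38) rose from P11 to P29 by 0.35 and 0.32 (adjusted p = 5.13e-05 and 0.0122; the latter 0.0959 without control P11 replicate 4). The Cox6b1 and Atp5g1 calls also ended with median-of-ratios size factors. Atp5g2 was at 2.29 ± 1.87 CPM in P29 controls, and an identical copy of its 3' end is annotated.

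Other cell types moved over the same interval. From P11 to P29 in controls, 9 of 11 tested RPE markers rose and 1 fell, and their summed level went from 19651 to 20451 CPM to 49818 to 50697. Erythrocyte markers went from 26874 to 28956 CPM to 2560 to 3191 (6 of 6 fell), endothelial markers from 465 to 507 to 79.7 to 111 (11 of 11 fell), rod markers from 13681 to 14565 to 11878 to 12523 (3 rose, 12 of 16 fell) and skeletal muscle markers from 85.1 to 135 to 12.3 to 20.9 (7 of 7 fell). Myelinating glia markers went from 358 to 481 CPM to 103 to 127 (6 of 6 fell), lens markers from 112 to 155 to 42.3 to 52.3 (6 of 10 fell) and cone markers from 218 to 282 to 107 to 128 (4 of 7 fell). Stromal fibroblast markers went from 2932 to 3272 CPM to 1884 to 1996 (1 rose, 3 of 7 fell), pericyte markers from 350 to 392 to 255 to 308 (2 of 7 fell) and microglia or macrophage markers from 287 to 355 to 441 to 492 (1 of 7 rose, 1 fell). Their part in the member changes was not tested.

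Between P29 and 3M in controls few members moved. Of 84 nuclear members 3 rose and 1 fell, and of 11 mitochondrial genes 1 fell, where 12% of all genes were called (3.49% higher, 8.50% lower). Beside Atp5k, Cox7b, a small subunit of complex IV, rose from 136 ± 7.05 to 181 ± 18.7 CPM (log2 0.41, SE 0.11, adjusted p = 0.00784, edgeR). Ndufs4, an accessory subunit that joins complex I late, rose from 90.2 ± 15.5 to 120 ± 20.1 CPM (log2 0.41, adjusted p = 0.0373), and Atp5g3 fell from 663 ± 50.6 to 559 ± 27.6 (log2 -0.25, adjusted p = 0.0141).

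The Ndufs4 call ended without control P29 replicate 3 or 4 or control 3M replicates 2, 3 or 4 (adjusted p 0.0841 to 0.206), and the Atp5g3 call without control P29 replicate 1 or 4 or control 3M replicate 4 (0.0675 to 0.0755). mt-Nd6, at 24.2 ± 9.80 and 14.3 ± 1.503 CPM, was called lower (log2 -0.75, adjusted p = 0.0473, edgeR). That call ended when any library but control P29 replicate 2 was left out (adjusted p 0.0692 to 0.224) and under each other setting except a stricter low-count filter (0.0527 to 0.252). Without a low-count filter, or with only the compared libraries, 2 mitochondrial genes were called and both were higher, and 1 was called higher with the replicate block. None of these was mt-Nd6.

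Other cell types moved between P29 and 3M in controls too. Rod markers went from 11878 to 12523 CPM to 4395 to 4759 (16 of 16 fell) and RPE markers from 49818 to 50697 to 67044 to 69859 (8 of 11 rose, 1 fell). Endothelial markers went from 79.7 to 111 CPM to 18.5 to 35.6 (7 of 11 fell), erythrocyte markers from 2560 to 3191 to 2074 to 2202 (5 of 6 fell) and lens markers from 42.3 to 52.3 to 20.1 to 24.3 (6 of 10 fell). Stromal fibroblast markers went from 1884 to 1996 CPM to 551 to 1139 (5 of 7 fell). The part of these cell types in the 3M values was not tested.

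Turning to genotype, the mutants held more mitochondrial-encoded RNA at P11. The mitochondrial share was 10.9%, 10.8%, 11.1% and 10.2% in P11 mutants, all above the 4 P11 controls, with a mean of 10.8% ± 0.375 against 7.81% ± 0.703 (SD, n = 4). At P29 it was 5.84% ± 0.530 against 5.05% ± 0.305, and at 3M 5.80% ± 0.566 against 4.83% ± 0.392, with overlap between genotypes at both ages. The nuclear share was 1.39% ± 0.0433 against 1.37% ± 0.0346 at P11 and overlapped. It was 1.71% ± 0.0246 against 1.64% ± 0.0300 at P29 and 1.75% ± 0.0399 against 1.63% ± 0.0252 at 3M, without overlap. These shares are given without a test.

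At P11, 4 of 11 mitochondrial genes rose in mutants and none fell, and of 84 nuclear members 5 rose and 1 fell, where 6.91% of all genes were called (3.23% higher, 3.67% lower). The median log2 fold change was 0.07 for the mitochondrial genes, -0.013 for the nuclear genes and -0.002 for all genes. mt-Nd4 had 40354, 40845, 40886 and 38922 CPM in mutants against 18683, 22961, 19197 and 28517 in controls, with no overlap. Its log2 fold change was 0.85 (SE 0.15, adjusted p = 0.00133, edgeR), and its share of mitochondrial counts was 38.7% ± 0.427 in mutants and 29.4% ± 3.03 in controls. mt-Nd2 rose from 13571 ± 3103 to 19326 ± 584 CPM (log2 0.51, adjusted p = 0.0077) and mt-Cytb from 16222 ± 899 to 19472 ± 874 (log2 0.26, adjusted p = 0.00333).

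The rise was not shared by all mitochondrial genes. mt-Nd1 was at 17636 ± 598 CPM in P11 mutants against 16886 ± 882 in controls (log2 0.06, SE 0.04, adjusted p = 0.441, edgeR). mt-Co1 was at 2697 ± 94.2 against 2571 ± 86.5 (log2 0.07, SE 0.06, adjusted p = 0.552), and both overlapped between genotypes. mt-Nd5, at 4535 ± 478 against 3658 ± 401, was not called (log2 0.31, adjusted p = 0.096). mt-Nd6 rose by 0.76 (adjusted p = 0.0259) from 48.9 ± 18.4 to 82.7 ± 20.8 CPM, a call that ended without control P11 replicate 1 or 3 or mutant P11 replicates 1, 2 or 3 (0.053 to 0.159).

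Among nuclear members at P11, Ndufa5, an accessory subunit of the matrix arm of complex I, had the smallest p. It had 173, 182, 211 and 189 CPM in mutants and 110, 98.9, 106 and 137 in controls, without overlap (log2 0.74, SE 0.12, adjusted p = 4.37e-06, edgeR). Atp5h, subunit d of the peripheral stalk, rose from 247 ± 18.5 to 310 ± 22.7 CPM (log2 0.33, adjusted p = 0.0107), and Ndufv3 from 255 ± 27.6 to 316 ± 27.1 (log2 0.31, adjusted p = 0.0131). Ndufb5 and Ndufb3, accessory subunits of the membrane arm of complex I, rose by 0.41 and 0.50 (adjusted p = 0.0211 and 0.027).

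Cox4i1, the largest nuclear-encoded subunit of complex IV, fell from 379 ± 50.8 to 306 ± 27.6 CPM at P11, with overlap (log2 -0.30, adjusted p = 0.0159, edgeR). Of these calls only that of Ndufa5 held on leaving out each of the 8 libraries. The Atp5h call ended without mutant replicate 2 (adjusted p = 0.0516) and the Ndufb5 call without mutant replicate 3 (0.19). The Ndufv3 call ended without control replicate 1 or 3 or mutant replicate 4 (0.0704 to 0.0844), and the Cox4i1 call without control replicate 2 or mutant replicate 1 (0.15 and 0.112). The Ndufb3 call ended without control replicates 1, 2 or 3 or mutant replicates 1 or 3 (0.0797 to 0.134). Without control replicate 4, 10 nuclear members were called at P11, 5 higher and 5 lower, in place of 6. With voom and quality weights 1 nuclear member was called.

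Several other measures differed between the genotypes at P11. Reads assigned to no feature were 27.03% ± 0.396 of entries in mutants and 23.4% ± 0.577 in controls. RPE markers summed to 18611 to 19466 CPM in mutants and 19651 to 20451 in controls (8 of 11 fell), rod markers to 16388 to 16878 and 13681 to 14565 (5 of 16 rose), endothelial markers to 212 to 264 and 465 to 507 (6 of 11 fell) and myelinating glia markers to 42.6 to 65.0 and 358 to 481 (6 of 6 fell). Pericyte markers summed to 172 to 223 CPM in mutants and 350 to 392 in controls (4 of 7 fell), lens markers to 54.3 to 66.7 and 112 to 155 (4 of 10 fell), erythrocyte markers to 28858 to 33216 and 26874 to 28956 (2 of 6 rose) and skeletal muscle markers to 138 to 180 and 85.1 to 135 (0 of 7 called). Stromal fibroblast markers summed to 2431 to 2666 CPM in mutants and 2932 to 3272 in controls (2 of 7 fell), and microglia or macrophage markers to 248 to 283 and 287 to 355 (1 of 7 fell). Their part in the P11 result was not tested.

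At P29 the leading difference was Cox8b. It had 470, 426, 539 and 431 CPM in mutants and 261, 234, 235 and 214 in controls, with every mutant library above every control (1.97-fold; log2 0.98, SE 0.10, adjusted p = 6.79e-12, edgeR). It was the only nuclear member called of 84, where 2.82% of all genes were called (1.63% higher, 1.19% lower). DESeq2 called 2, 1 higher and 1 lower. Cox8a was at 606 ± 53.9 CPM against 667 ± 85.8 and not called (log2 -0.14, adjusted p = 0.562). Cox8b ranged from 114 to 166 CPM in mutants and 121 to 182 in controls at P11 (adjusted p = 0.749) and from 293 to 339 against 218 to 299 at 3M (adjusted p = 0.191), overlapping at both ages.

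The Cox8b genotype effect differed between ages by the test of the difference itself: 1.07 higher at P29 than at P11 (SE 0.15, adjusted p = 2.58e-07, edgeR) and 0.71 lower at 3M than at P29 on the log2 scale (SE 0.15, adjusted p = 0.00181). Both values held on leaving out each library. At P29 the 14 skeletal muscle markers summed to 12.4 to 19.9 CPM in mutants and 12.3 to 20.9 in controls. Ckm, Myh2, Myh13, Mb and Actn3 had no count in the P29 mutants, and Ckm, Myh1 and Myh2 had none in the P29 controls. Lens markers summed to 901 to 984 CPM in P29 mutants against 42.3 to 52.3 in controls (9 of 10 rose) and rod markers to 16953 to 18048 against 11878 to 12523 (15 of 16 rose), and RPE markers to 42821 to 45273 against 49818 to 50697 (1 of 11 rose, 5 fell). Erythrocyte markers summed to 3745 to 4024 CPM in P29 mutants against 2560 to 3191 in controls (4 of 6 rose). The part of these cell types in the Cox8b value was not tested.

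**Figure D4:**
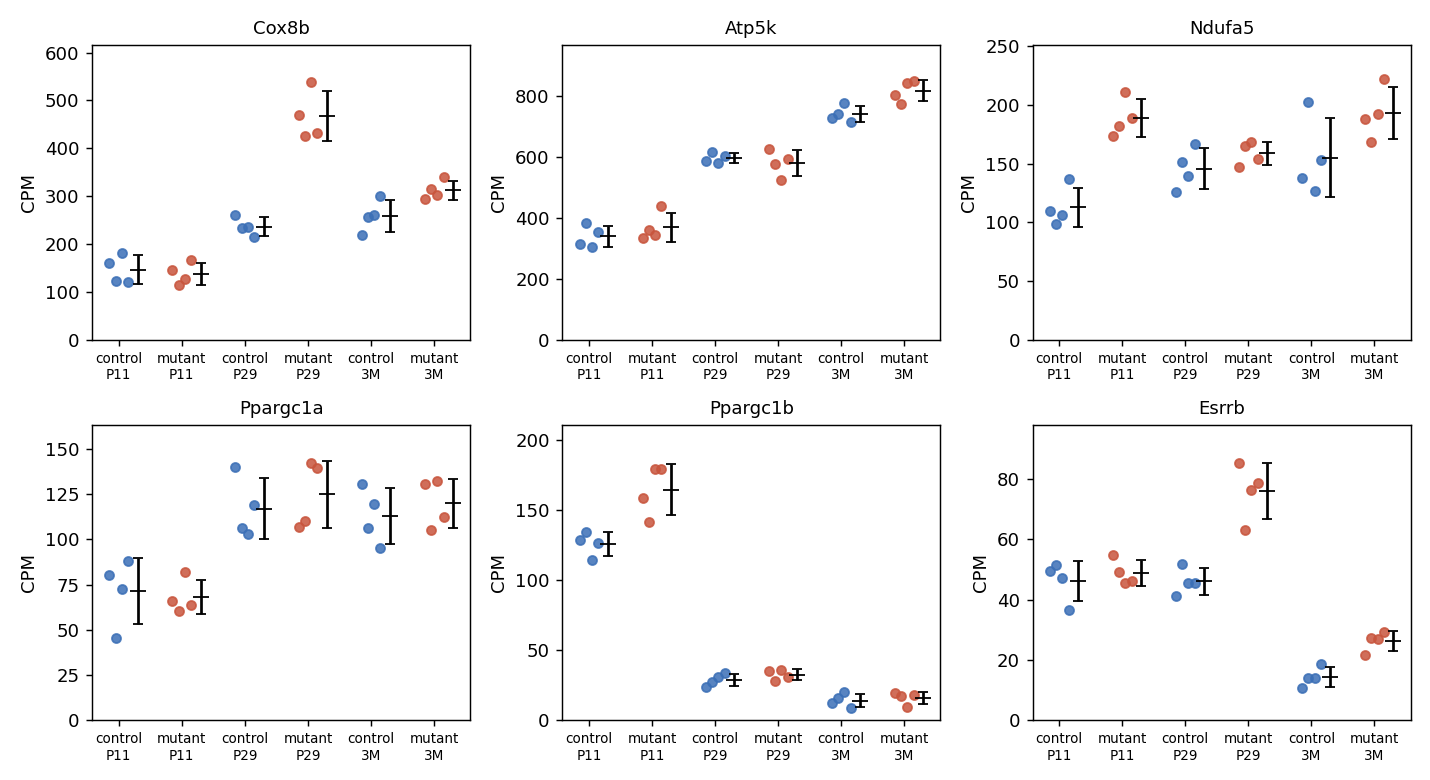
CPM per library (points; controls blue, mutants red) with the group mean and SD in black for 3 nuclear members (Cox8b, Atp5k, Ndufa5) and 3 regulators (Ppargc1a, Ppargc1b, Esrrb). Cox8b in P29 mutants lies between 426 and 539 CPM, above the 214 to 261 CPM of P29 controls.

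The start regions of Atp5k and Cox8b are shown because Atp5k led the rise with age and Cox8b the genotype difference. The 250 bases before each annotated start (RefSeq, GRCm38.p6) lie at chr5:108434400-108434649 and chr7:140900447-140900696, both on the minus strand. Capitals mark the motif of NRF1, a transcription factor known for binding at many respiratory genes, in the Atp5k stretch shown. The searched bases of Atp5k also matched the ETS core and the core site of the estrogen-related receptors, neither lying wholly within the stretch shown. Atp5k thus held 3 of the 4 motifs described next. None of the 4 motifs searched was found in the Cox8b window.
Atp5k: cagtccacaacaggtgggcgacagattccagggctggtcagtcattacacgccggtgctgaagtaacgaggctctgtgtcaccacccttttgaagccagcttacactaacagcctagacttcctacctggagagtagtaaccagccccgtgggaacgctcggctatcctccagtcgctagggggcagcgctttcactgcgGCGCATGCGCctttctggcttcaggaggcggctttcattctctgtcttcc
Cox8b: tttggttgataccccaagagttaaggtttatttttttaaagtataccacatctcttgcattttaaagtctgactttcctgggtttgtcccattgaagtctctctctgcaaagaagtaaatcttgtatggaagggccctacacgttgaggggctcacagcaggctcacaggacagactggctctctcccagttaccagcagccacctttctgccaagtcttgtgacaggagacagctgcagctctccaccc

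The motifs were searched on both strands, in windows from 250 bases before to 50 bases after annotated starts, for the 68 of 88 nuclear members with an entry. The NRF1 motif, of which the capitals above are a match, was in 25% of members against 5.19% of all 27025 genes with a window. The ETS core CCGGAAG, bound by GABPA among others, was in 23.5% against 9.93%. The YY1 motif AAGATGGC was in 13.2% against 3.19%, and AAGGTCA, the core site of the estrogen-related receptors, in 11.8% against 5.38%. Motifs could overlap one another, and a match is a description of letters, not of binding. The 37 matched members that rose from P11 to P29 in controls held them at 24.3%, 21.6%, 13.5% and 10.8%, and the 30 other tested members at 26.7%, 26.7%, 13.3% and 13.3%.

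Of the 11 mitochondrial genes, 3 rose in P29 mutants and none fell, where 2.82% of all genes were called (1.63% higher, 1.19% lower). mt-Nd1 was at 8889, 9917, 9024 and 9325 CPM in mutants and 7723, 7644, 7946 and 7443 in controls (log2 0.27, SE 0.04, adjusted p = 8.37e-07, edgeR). mt-Co1 rose from 1550 ± 104 to 1945 ± 139 CPM (log2 0.33, SE 0.06, adjusted p = 1.08e-05). Neither overlapped between genotypes. mt-Cytb rose from 10964 ± 575 to 12766 ± 921 (log2 0.22, adjusted p = 0.0273), a call that ended without control replicate 2 or 4 or mutant replicate 2 or 4 (0.0969 to 0.133). mt-Nd4 was at 18686 ± 3488 against 16745 ± 1829 CPM and not called (log2 0.16, adjusted p = 0.806).

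So the mitochondrial genes called at P11 (mt-Nd4, mt-Nd2, mt-Cytb, mt-Nd6) and at P29 (mt-Nd1, mt-Co1, mt-Cytb) shared mt-Cytb only. The difference itself passed for few of them, where 2.63% of all genes were called for P29 against P11 (1.45% higher, 1.18% lower) and 0.853% for 3M against P29 (0.610% higher, 0.244% lower). From P11 to P29 the genotype effect rose by 0.21 for mt-Nd1 (SE 0.06, adjusted p = 0.0303, edgeR). It changed by 0.26 for mt-Co1 (adjusted p = 0.0527) and by -0.69 for mt-Nd4 (adjusted p = 0.105), neither called. From P29 to 3M it fell by 0.39 for mt-Co1 (adjusted p = 0.00127), a call that held on leaving out each library.

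The mt-Nd1 call ended without control P11 replicate 2 or 3, mutant P11 replicate 4, control P29 replicate 4 or mutant P29 replicate 2 or 4 (adjusted p 0.0532 to 0.106, edgeR). Among nuclear members, the genotype effect of Ndufa5 was 0.61 lower at P29 than at P11 (adjusted p = 0.0251) and that of Cox4i1 0.41 higher (adjusted p = 0.0423). The first call ended without control P11 replicate 2, mutant P11 replicate 3, control P29 replicate 4 or mutant P29 replicate 1 (0.0596 to 0.0865). The second ended without any of 7 libraries, control P11 replicate 2, mutant P11 replicates 1 and 2, control P29 replicates 3 and 4 and mutant P29 replicates 1 and 3 (0.061 to 0.149).

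mt-Nd3 was called in both differences, by 2.01 (adjusted p = 0.0303, edgeR) and -2.29 (adjusted p = 0.0267), on group sums of 70 to 271 counts. Its mutant and control levels were 16.7 ± 10.7 and 32.1 ± 16.8 CPM at P11, 16.4 ± 6.63 and 7.87 ± 2.19 at P29, and 7.35 ± 2.41 and 17.4 ± 9.67 at 3M. It was called at none of the 3 ages alone (adjusted p = 0.13, 0.214 and 0.106), its 3' end has an identical nuclear copy, and the first call ended without any of 9 libraries and the second without any of 8, listed in the closing section.

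At 3M, 3 of 84 nuclear members rose in mutants and none fell, where 2.61% of all genes were called (2.13% higher, 0.480% lower). Ndufv3 had 578, 530, 569 and 577 CPM in mutants and 438, 455, 371 and 437 in controls, without overlap (log2 0.41, SE 0.08, adjusted p = 0.00044, edgeR), and held on leaving out each library. Ndufb3 rose from 230 ± 39.4 to 336 ± 39.9 CPM (log2 0.55, adjusted p = 0.0183) and Atp5g3 from 559 ± 27.6 to 675 ± 29.96 (log2 0.27, adjusted p = 0.0191). The Ndufb3 call ended without control replicates 1, 3 or 4 or mutant replicates 1 or 4 (0.0515 to 0.0905), and the Atp5g3 call without control replicate 2 or 4 or mutant replicate 1 or 4 (0.0602 to 0.108).

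None of the 11 mitochondrial genes was called at 3M by edgeR. DESeq2 called 0 and voom with quality weights 2, both higher. With only the compared libraries 2 were called, 1 higher and 1 lower. mt-Nd4 was at 23453 ± 3634 CPM against 17015 ± 2691, without overlap (log2 0.46, SE 0.15, adjusted p = 0.151). Rod markers summed to 7805 to 8244 CPM in 3M mutants against 4395 to 4759 in controls (15 of 16 rose). RPE markers summed to 66935 to 70384 and 67044 to 69859 CPM (1 of 11 fell), and erythrocyte markers to 2490 to 2655 and 2074 to 2202 (4 of 6 rose). Cone markers summed to 157 to 169 CPM in 3M mutants against 69.2 to 99.9 in controls (3 of 7 rose). Their part in the 3M result was not tested.

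**Figure D5:**
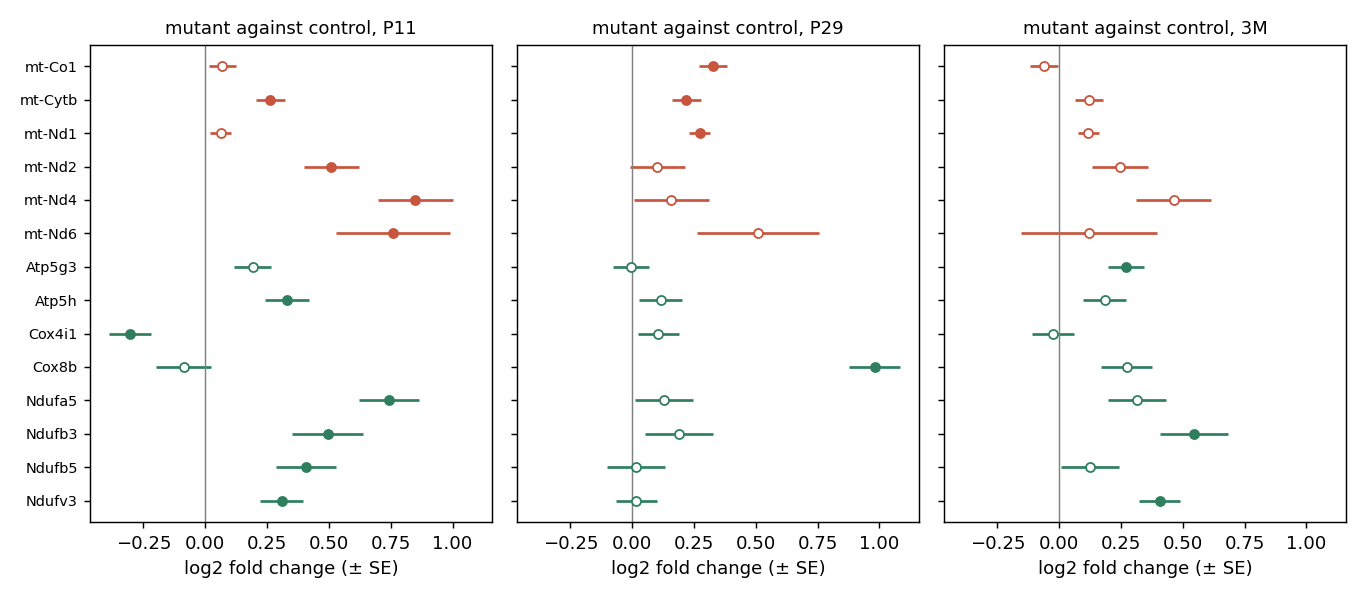
Log2 fold change of mutant against control (horizontal axis, with SE) at P11, P29 and 3M for the 14 members called at 1 or more ages, mitochondrial-encoded in red and nuclear-encoded in green; filled points passed an adjusted p of 0.05. mt-Nd4 at P11 (0.85) and Cox8b at P29 (0.98) lie farthest from 0 at their ages.

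The other genes of mitochondrial energy metabolism were read from 6 lists. From P11 to P29 in controls, 8 of 24 citric acid cycle genes rose and none fell, with the pyruvate carboxylase Pcx from 8.66 ± 7.66 to 35.3 ± 5.19 CPM (log2 2.14, adjusted p = 1.2e-08, edgeR) and the succinyl-CoA ligase subunit Sucla2 from 57.9 ± 8.05 to 107 ± 17.8 (log2 0.89, adjusted p = 2.73e-07). Of 20 carriers and energy-transfer genes 7 rose, among them the ADP/ATP carrier Slc25a4 (log2 0.55, adjusted p = 1.7e-11) and the adenylate kinase Ak3 (log2 0.85, adjusted p = 9.44e-12). One fell, the mitochondrial creatine kinase Ckmt1, from 79.6 ± 13.1 to 21.2 ± 1.49 CPM (adjusted p = 3.18e-13). Of 51 assembly factors 8 rose and 1 fell, of 75 mitochondrial ribosome proteins 8 rose and 5 fell, and of 34 genes for mitochondrial DNA expression none rose and 2 fell. The shares that rose in these last 3 lists were 15.7%, 10.7% and 0%, against 16.5% over all genes.

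Among 17 regulators of mitochondrial biogenesis, 2 rose and 3 fell from P11 to P29 in controls. That is 29.4% called and 11.8% higher, no more than the 32% and 16.5% over all genes. The paralogous coactivators Ppargc1a and Ppargc1b moved apart. Ppargc1a had 80.3, 45.6, 72.5 and 87.9 CPM at P11 and 140, 106, 103 and 119 at P29 (log2 0.70, SE 0.15, adjusted p = 5.79e-05, edgeR). Ppargc1b had 128, 134, 114 and 127 CPM at P11 and 23.5, 26.99, 30.9 and 33.1 at P29 (log2 -2.14, SE 0.18, adjusted p = 1.47e-18), and fell again to 13.8 ± 4.76 at 3M (adjusted p = 8.56e-05). Neither pair of groups overlapped between P11 and P29. Prkaa2, a catalytic subunit of the energy sensor AMPK, rose by 1.01 (adjusted p = 0.000794).

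In mutants, 1 of 17 regulators (5.88%) was called at P29 and at 3M, where 2.82% and 2.61% of all genes were called. It was the estrogen-related receptor Esrrb, a gene rods are known to express. It had 85.5, 63.2, 76.6 and 78.9 CPM in P29 mutants against 41.3, 52.0, 45.6 and 45.4 in controls (log2 0.72, SE 0.19, adjusted p = 0.015, edgeR), and 26.2 ± 3.33 against 14.2 ± 3.30 at 3M (log2 0.87, adjusted p = 0.0129). Groups did not overlap at either age. At P11 Esrrb was at 48.9 ± 4.31 CPM in mutants and 46.2 ± 6.71 in controls and was not called. Rod markers were higher in mutants at all 3 ages, and their part in the Esrrb values was not tested. At P11, where 6.91% of all genes were called, Lrpprc, which stabilises mitochondrial mRNAs, rose from 41.6 ± 17.5 to 69.6 ± 9.57 CPM (log2 0.77, adjusted p = 0.0115, edgeR). It was 1 of 34 genes for mitochondrial DNA expression (2.94%). Also called were the citric acid cycle gene Dlst (log2 0.65, adjusted p = 0.0152, 1 of 24 such genes, 4.17%) and 5 of 20 carriers and energy-transfer genes (25%, 3 higher, 2 lower). Of 51 assembly factors 2 were called (3.92%), Cox20 higher by 0.55 and Cmc2 lower by 1.36 (adjusted p = 0.00488 and 0.00359). Of 20 carriers and energy-transfer genes at P29, 1 rose and 1 fell in mutants (10%, against 2.82% of all genes). Ckmt1 rose from 21.2 ± 1.49 to 35.3 ± 7.59 CPM (adjusted p = 0.0335, edgeR) and Ak3 fell from 331 ± 20.2 to 258 ± 10.3 (adjusted p = 0.0189).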

How the data were processed

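Counts were deposited by the authors as whole-number counts of uniquely aligned reads per gene, 1 file per library, per the values and the file layout. The submitters' processing notes name STAR, with no version, and mm10. The labels give a 3' mRNA kit and single-end reads. No source used here gives the counter, its annotation or strand setting.

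Entries that name no gene entered neither library sizes nor tests (reads in no feature 18.6% to 27.5% of entries, reads without a unique place 31.02% to 37.2%). Counts were fitted with edgeR 4.0.16 (R 4.3.3): TMM, filterByExpr on groups, robust quasi-likelihood, all 24 libraries with 1 mean per group, 12303 genes, Benjamini-Hochberg over all genes, called at an adjusted p under 0.05. SE is the log2 fold change over the root of F. The 7 comparisons were genotype at each of 3 ages, 2 age steps in controls (P11 to P29, P29 to 3M), and 2 differences of the genotype effect. Members, lists and the rule for named genes (all mitochondrial genes, the 5 smallest p per direction, fixed isoform and role genes, 3 per other list) were chosen with earlier results of these data known. Some genes that the rule names are not reported here. The 3' ends were compared with GENCODE M21 transcripts by BLAST 2.17.0 (95% identity, 50 bases).

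The alternatives were DESeq2 1.42.0, voom with quality weights (limma 3.58.1), size factors by the median of ratios, no low-count filter, 5 CPM in 4 libraries, only the compared libraries, a scale without mitochondrial genes, the replicate block and leaving out each library. The model was tested on simulated data. Intervals of counting error are not given, and depth limits genes of few counts: 3 counts were worth 1.04 to 1.98 CPM, depending on the library. No replicate pair agreed within sampling noise (chi-square per gene 2.98 to 7.15).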

Additional observations from a re-analysis of the deposited data

Results flagged for a closer look

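Of 120 groups of 4 libraries tested, 6 held a library far from the other 3, and chance gives about 1 in 20. They were mt-Nd2 in P11 controls (18197 CPM, replicate 4), mt-Nd2 in P29 mutants (12320 CPM, replicate 2), mt-Nd5 in P11 mutants (3828 CPM, replicate 4), Ndufb3 in 3M controls (288.9 CPM, replicate 2), Cox4i1 in 3M mutants (448 CPM, replicate 3) and Sdhb in P11 controls (88.9 CPM, replicate 1). Without control P11 replicate 4, the mt-Nd2 genotype effect at P11 was 0.68 in place of 0.51.

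The genotype effect differed between ages, by the interaction test of edgeR, for 6 members. From P11 to P29 it changed on the log2 scale by 1.07 for Cox8b (adjusted p = 2.58e-07), 0.41 for Cox4i1 (0.0423), -0.61 for Ndufa5 (0.0251), 0.21 for mt-Nd1 (0.0303) and 2.01 for mt-Nd3 (0.0303). From P29 to 3M it changed by -0.71 for Cox8b (0.00181), -0.39 for mt-Co1 (0.00127) and -2.29 for mt-Nd3 (0.0267).

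The first mt-Nd3 call ended without control P11 replicate 1 or 3, mutant P11 replicate 2 or 4, control P29 replicates 1, 2 or 4 or mutant P29 replicate 2 or 3 (adjusted p 0.0628 to 0.0978). The second ended without control P29 replicates 1, 2 or 4, mutant P29 replicate 2 or 3, control 3M replicate 4 or mutant 3M replicate 3 or 4 (0.063 to 0.141).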

How the results depend on the processing

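No call of a member reversed under any alternative run. Named calls were lost most often with voom and quality weights and on leaving out libraries. Counts of calls (main count first) moved by over 1.5 times as follows, and the cause was not tested. With voom: nuclear at P11 6 to 1, mitochondrial at 3M 0 to 2, mitochondrial 3M against P29 1 to 0, and for the differences between ages nuclear 3 to 1 and mitochondrial 2 to 4 (P29 against P11), nuclear 1 to 3 and mitochondrial 2 to 1 (3M against P29). With DESeq2: nuclear at P29 1 to 2, mitochondrial 3M against P29 1 to 0, and nuclear 1 to 2 for the 3M against P29 difference. With only the compared libraries: mitochondrial at 3M 0 to 2, nuclear 3M against P29 4 to 8, mitochondrial 3M against P29 1 to 2, and nuclear 1 to 2 for the later difference. The mitochondrial 3M against P29 count of 1 became 0 with median-of-ratios size factors or a scale without mitochondrial genes, and 2 with no low-count filter. The 2 calls of that setting, the 2 with only the compared libraries and the 1 with the replicate block were all higher and shared no gene with the main call. Median-of-ratios size factors shifted the median of all genes from P11 to P29 by -0.07 on the log2 scale.

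As a share of all entries, the mitochondrial difference was 1.003 points in place of 2.949 at P11, 0.342 in place of 0.793 at P29 and -0.747 in place of -2.758 from P11 to P29 in controls. All entries include reads that name no gene, so shares and their differences in points are smaller on this larger base. The relative difference was smaller on it too, for genotype at P11 and from P11 to P29 in controls. The size of these results thus depends on the base, and the cause was not tested. On the base of all entries, the share was 2.91% to 3.51% in P11 controls and 3.91% to 4.26% in P11 mutants. At P29 it was 2.24% to 2.54% in controls and 2.51% to 3.06% in mutants. Outside the mitochondrial genome the nuclear share differed by 0.071 in place of 0.019 points at P11.

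Leaving out 1 library gave these ranges. For P29 against P11 in controls: nuclear 41 to 46, mitochondrial 7 to 10, shares -2.928 to -2.429 and 0.252 to 0.281. For 3M against P29: nuclear 2 to 5, mitochondrial 0 to 1, shares -0.396 to -0.085 and -0.015 to 0.006. For genotype at P11: nuclear 4 to 10, mitochondrial 3 to 6, shares 2.778 to 3.277 and -0.001 to 0.034. At P29: nuclear 1, mitochondrial 2 to 3, shares 0.549 to 0.943 and 0.061 to 0.087. At 3M: nuclear 1 to 3, mitochondrial 0 to 2, shares 0.748 to 1.178 and 0.103 to 0.135. For the differences: nuclear 1 to 3 and mitochondrial 0 to 5 (P29 against P11), nuclear 1 to 2 and mitochondrial 1 to 2 (3M against P29).

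Same-numbered libraries did not deviate together (correlations -0.0198 to 0.0318), so the numbers pair nothing. With the replicate block the counts were the same as without, 46 nuclear and 10 mitochondrial members for P29 against P11 and 6 and 4 for genotype at P11, but Cox5a (adjusted p = 0.0557) and mt-Nd6 from P29 to 3M (0.0617) were no longer called.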
